A study of Mus musculus with 23 samples.

Results

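The subject was the genes of the voltage-gated sodium, potassium and calcium channels, the other potassium channels and the HCN channels, read from a table of RNA-seq counts of mouse cortex. Members were the rows whose gene symbol follows the naming of these families (Scn, Kcn, Cacna, Cacnb, Cacng and Hcn), with Kcnj10 left out, and they came to 136 of the 39017 genes in the table. They carried 135 symbols, since Kcnb2 has 2 gene identifiers, and Scn2a is spelled Scn2a1. The rule reads names and uses no measured level.

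Cortex RNA came from 22 mice. Each mutant was heterozygous for a substitution of glycine 34 in the histone H3 variant encoded by H3f3a: to arginine (H3f3a G34R/+), valine (G34V/+) or tryptophan (G34W/+). At 10 weeks there were 3 G34R males, 3 G34V males, a G34W male and a G34W female, and 6 wild-type (WT) males. At postnatal day 7 there were 4 G34R mice and 4 WT mice, with 2 males and 2 females in each group. The title of G34W replicate 2 begins as those of the males do, while its sex label is female. Bulk cortex holds neurons of many kinds beside glia and vessels, and in such samples fewer cells of a type and less RNA per cell cannot be told apart.

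Voltage-gated channels set how a neuron fires. Sodium channel alpha subunits form the pore that starts the action potential, and beta subunits attach to them. Potassium channels end the action potential and set the resting potential, calcium channels couple it to transmitter release and to signalling in the cell, and HCN channels pass a depolarising current when the membrane is hyperpolarised. Many families are known to exchange neonatal subunits for adult ones while the cortex matures, and Scn3a giving way to Scn1a is a textbook case. The study's title names recruitment of DNMT3A, a DNA methyltransferase that acts on CG dinucleotides among others.

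Counts per library came to 32.3 to 90.1 M at 10 weeks and 28.4 to 53.5 M at day 7. Levels are given as CPM, counts scaled to a common library size with TMM factors over the 22 animals. H3f3a RNA itself was between 41.4 and 45.4 CPM in G34R, 39.8 and 43.5 in G34V, 38.4 and 45.8 in G34W and 41.5 and 49.6 in WT mice at 10 weeks, and between 59.3 and 63.3 CPM in G34R and 69.8 and 75.5 CPM in WT mice at day 7. Its level cannot check a point substitution. All 5 excitatory neuron markers of the cortex were detected in every animal, with a summed level of 2054 to 2166 CPM in WT mice at 10 weeks and 879 to 1104 CPM in WT mice at day 7. Striatal and choroid plexus markers were present too and varied between animals (values beside the genes they move with). The labels give no batch. The ages were submitted as separate blocks of samples, so a batch and age cannot be told apart.

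Promoter sequences were available for 98 members in the RefSeq table of GRCm38.p6. The stretch of 250 bases before the start site held a median of 8 CG dinucleotides in members and 6 in all 27025 genes of the table. The letters TATAAA on either strand were in 3.06% of the members' stretches and in 13.0% of all. Among members that were higher at 10 weeks than at day 7 in WT the median was 14 CG (53 stretches), against 7 in those that were lower (17 stretches) and 8 in those that passed in neither direction (21 stretches). These counts were not tested and describe letters only. Printed are the stretches of the members on which the results below turn: Kcns1 and Kcng4, with the firmest differences between genotypes, and Hcn2, Hcn4 and Scn4b, with large differences in age. Each is the 250 bases before the RefSeq start site, 5′ to 3′ on the strand of the gene, with CG dinucleotides in capitals.
Kcns1, chr2:164171114-164171363, minus strand: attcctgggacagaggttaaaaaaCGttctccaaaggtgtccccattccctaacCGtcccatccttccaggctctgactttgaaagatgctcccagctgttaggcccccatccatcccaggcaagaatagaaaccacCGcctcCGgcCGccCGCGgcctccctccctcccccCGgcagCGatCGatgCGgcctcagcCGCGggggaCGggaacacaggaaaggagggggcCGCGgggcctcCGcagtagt
Kcng4, chr8:119635681-119635930, minus strand: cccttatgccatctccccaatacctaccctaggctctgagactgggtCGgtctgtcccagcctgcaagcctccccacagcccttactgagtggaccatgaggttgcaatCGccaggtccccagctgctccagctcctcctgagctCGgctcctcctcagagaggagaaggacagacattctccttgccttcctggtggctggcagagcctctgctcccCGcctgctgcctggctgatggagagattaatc
Hcn2, chr10:79716384-79716633, plus strand: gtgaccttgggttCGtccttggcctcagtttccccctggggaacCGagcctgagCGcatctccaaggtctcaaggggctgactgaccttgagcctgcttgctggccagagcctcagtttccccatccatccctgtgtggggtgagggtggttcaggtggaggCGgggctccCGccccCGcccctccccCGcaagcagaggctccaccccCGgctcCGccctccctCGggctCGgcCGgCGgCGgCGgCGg
Hcn4, chr9:58822699-58822948, plus strand: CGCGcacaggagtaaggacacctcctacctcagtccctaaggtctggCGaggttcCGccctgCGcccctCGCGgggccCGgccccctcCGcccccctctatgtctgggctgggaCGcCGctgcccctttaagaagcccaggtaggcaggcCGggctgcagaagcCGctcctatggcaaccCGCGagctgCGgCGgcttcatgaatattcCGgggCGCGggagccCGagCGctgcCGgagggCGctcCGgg
Scn4b, chr9:45138374-45138623, plus strand: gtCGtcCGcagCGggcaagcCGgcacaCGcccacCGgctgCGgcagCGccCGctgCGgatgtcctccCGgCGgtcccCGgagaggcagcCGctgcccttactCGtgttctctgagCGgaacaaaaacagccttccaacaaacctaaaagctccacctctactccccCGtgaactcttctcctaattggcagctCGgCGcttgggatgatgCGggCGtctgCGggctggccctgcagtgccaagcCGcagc
The CG count was 17 in the Kcns1 stretch, 4 in that of Kcng4, 16 in Hcn2, 25 in Hcn4 and 23 in Scn4b. Of these, Kcng4, Hcn2 and Scn4b were higher at 10 weeks than at day 7 in WT, and Hcn4 was lower. The printed stretches were picked, and their counts were not tested against the direction of change.

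Channel genes differed widely between the ages, most of them upward. Of the 127 members tested in WT, 71 were higher at 10 weeks than at day 7 and 33 were lower, at an adjusted p under 0.05 in edgeR's quasi-likelihood test over 22417 genes. The 104 called members were 81.9% of those tested, while 67.7% of all tested genes were called. The share called higher was 55.9% of members and 33.3% of all genes, and the share called lower was 26.0% of members and 34.4% of all genes. Called and at least 2-fold apart were 51 members, 36 higher and 15 lower, against 26.0% of all genes. The median log2 fold change was 0.40 over the members and -0.01 over all genes. The 9 members that were not tested stayed at or under 0.315 CPM in every animal. Lack of overlap between the ages was a criterion for naming many members below, so it describes them only. The share of all genes without overlap was not computed.

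**Figure D1:**
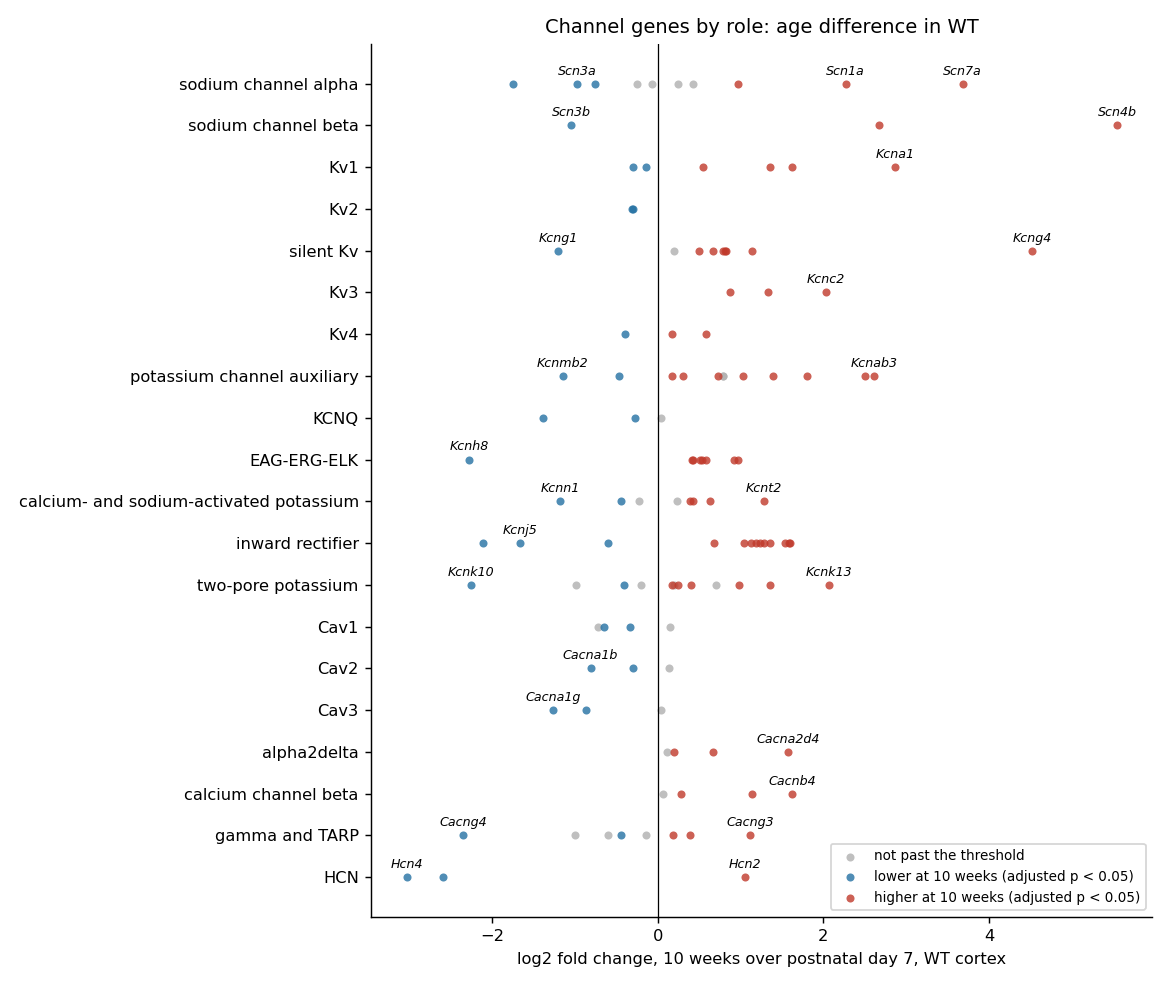
Log2 fold change of the tested members reported here at 10 weeks over day 7 in WT cortex (horizontal axis), with members in rows by role. Red points were higher and blue points lower at 10 weeks at an adjusted p under 0.05, and grey points did not pass. Scn4b stands farthest right at 5.54 and Hcn4 farthest left at -3.03.

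The age differences in G34R mice ran along those in WT mice. Of 127 members, 66 were higher and 29 lower at 10 weeks than at day 7 in G34R (74.8%, against 63.8% of all genes; 31.5% of all genes were higher and 32.3% lower). These animals are not those of the WT comparison, although both sets lie in the same age blocks and in 1 fit. Across the 127 genes the age differences in G34R and WT had a Pearson correlation of 0.961 and a Spearman correlation of 0.938, which describe genes and not independent replicates. The sign was the same for 118 members, 90 were called in both genotypes (63 higher, 27 lower) and none was called in opposite directions. Called in WT alone were 14 and in G34R alone 5, and these counts do not show that the genotypes differ at those genes: the test of that difference is given further on.

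Among the sodium channel alpha subunits, 3 of 10 rose (Scn1a, Scn8a and Scn7a) and 3 fell (Scn3a, Scn9a and Scn11a). These counts were near the shares of all genes called in WT, 33.3% higher and 34.4% lower. The same shares apply to the counts of each role group below, and no group was tested as a set. Scn1a, a pore subunit prominent in fast-spiking interneurons, had between 261 and 324 CPM (median 276) at 10 weeks and 58.6, 64.5, 55.0 and 57.1 CPM at day 7 in WT. All of its 10-week animals lay above all of its day-7 animals (log2 fold change 2.269, SE 0.0902, adjusted p = 4.03e-16). Scn8a, the pore of mature nodes of Ranvier and of axon initial segments, had between 333 and 406 CPM (median 349) at 10 weeks and 197, 192, 162 and 172 CPM at day 7, again with no overlap (log2 fold change 0.97, SE 0.0720, adjusted p = 1.67e-11). Scn3a, the pore subunit of the embryonic and neonatal brain, fell to between 66.8 and 79.2 CPM (median 73.9) at 10 weeks, against 147, 153, 142 and 140.2 CPM at day 7 (log2 fold change -0.97, SE 0.0606, adjusted p = 6.22e-13). Its highest 10-week animal was below its lowest day-7 animal. Scn2a1, the pore of young axon initial segments, had between 571 and 619 CPM (median 595) at 10 weeks and 644, 699.7, 552 and 598 CPM at day 7, and these ranges overlapped (log2 fold change -0.068, SE 0.0630, adjusted p = 0.346).

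Scn7a, which senses sodium and is not opened by voltage, had between 5.27 and 8.64 CPM (median 7.57) at 10 weeks and 0.531, 0.544, 0.854 and 0.353 CPM at day 7 (log2 fold change 3.68, SE 0.226, adjusted p = 8.46e-13). Scn9a, best known from sensory neurons, had between 9.96 and 14.1 CPM (median 12.7) at 10 weeks and 20.2, 21.6, 20.3 and 21.7 CPM at day 7 (log2 fold change -0.75, SE 0.110, adjusted p = 1.9e-06). Scn11a stayed under 1 CPM throughout. Per kilobase of exon, Scn1a made up 24.6% of the summed alpha subunit level at 10 weeks (23.2 to 27.1% over animals) and 6.62% at day 7 (6.40 to 6.78%) in WT. Scn2a1 made up 45.3% at 10 weeks and 61.3% at day 7 and was the largest share at both ages. The Scn3a share was 5.77% at 10 weeks and 14.7% at day 7. In G34R the same shares were 22.2% and 6.55% for Scn1a, 48.3% and 62.2% for Scn2a1, and 5.95% and 14.6% for Scn3a, the 10-week value given ahead of day 7. Shares are descriptions and were not tested.

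The beta subunits showed a sharper exchange, with Scn2b and Scn4b rising and Scn3b falling. Scn4b, the subunit tied to resurgent sodium current, had between 141 and 266 CPM (median 189) at 10 weeks and 3.72, 2.82, 7.44 and 2.98 CPM at day 7 in WT (log2 fold change 5.54, SE 0.381, adjusted p = 6.32e-10). It was 128, 194 and 128 CPM at 10 weeks and 2.67, 8.43, 2.61 and 5.75 CPM at day 7 in G34R (log2 fold change 4.90, SE 0.384, adjusted p = 5.29e-09). No 10-week animal of either genotype came near a day-7 animal, and this was the largest rise of any member in both genotypes. Striatum is rich in this gene, and the summed level of 7 striatal markers was 394 to 885 CPM at 10 weeks and 206 to 369.9 CPM at day 7 in WT, with 7 of 7 markers higher and none at 0. Their part in the Scn4b result was not tested.

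Scn2b, linked to the pore by a disulfide bond, had between 279 and 347 CPM (median 307) at 10 weeks and 50.3, 49.1, 51.6 and 44.7 CPM at day 7 in WT (log2 fold change 2.67, SE 0.0618, adjusted p = 6.89e-21). Scn3b fell to between 82.7 and 100.03 CPM (median 95.1) at 10 weeks, against 199.7, 192, 187 and 189.6 CPM at day 7 (log2 fold change -1.04, SE 0.0622, adjusted p = 2.77e-13). Neither gene had overlapping ages. Per kilobase, Scn3b was 5.86% of the summed beta subunit level at 10 weeks and 48.2% at day 7, and Scn4b was 13.7% at 10 weeks and 1.16% at day 7. Among all members Scn2a1 had the highest level per length at day 7 in WT, and its level was 46.7 CPM per kb at 10 weeks and 49.0 CPM per kb at day 7.

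**Figure D2:**
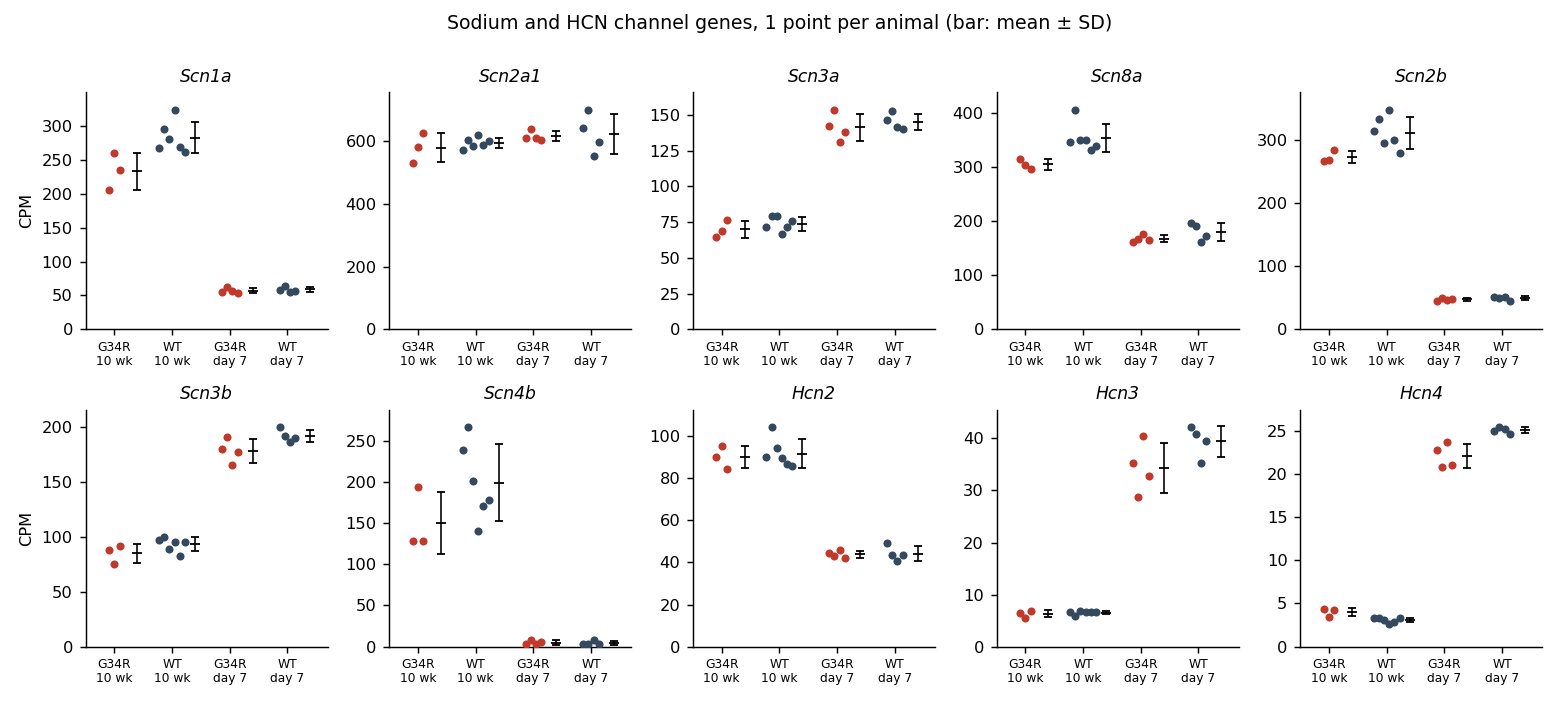
CPM (vertical axis) of sodium channel and HCN genes, 1 point per animal, for G34R and WT at 10 weeks and at day 7, with the mean ± SD beside each group. The 10-week points of Scn1a, Scn8a, Scn2b, Scn4b and Hcn2 lie above all day-7 points, those of Scn3a, Scn3b, Hcn3 and Hcn4 below them, and Scn2a1 is level.

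Among the Kv1 genes, which code for low-threshold potassium channels of axons, 4 of 6 tested rose and 2 fell. Kcna1, a subunit of the juxtaparanodes of myelinated axons, had between 214 and 278 CPM (median 233) at 10 weeks and 38.1, 28.4, 34.7 and 30.2 CPM at day 7 in WT (log2 fold change 2.87, SE 0.131, adjusted p = 9.4e-14). Kcna2, its usual partner there, had between 71.3 and 88.5 CPM (median 76.1) at 10 weeks and 28.7, 25.3, 25.2 and 22.4 CPM at day 7 (log2 fold change 1.62, SE 0.0794, adjusted p = 8.11e-15). Both were without overlap, and Kcna1 made up 53.9% of the summed Kv1 level per length at 10 weeks and 15.7% at day 7. Kcna5 rose (log2 fold change 1.35, adjusted p = 0.000425) and Kcna3 fell (log2 fold change -0.29, adjusted p = 0.00547). The log2 fold change of Kcna6 was -0.13, and that call was lost without WT replicate 3, 5 or 6 at 10 weeks or 1, 2 or 4 at day 7 (adjusted p 0.057 to 0.0942). The markers of oligodendrocytes, which make myelin, were all 6 higher at 10 weeks, with none at 0 at either age and a summed level of 4102 to 5381 CPM at 10 weeks and 183 to 241 CPM at day 7 in WT. Their part in the Kv1 results was not tested.

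Of the Kv3 genes, Kcnc1, Kcnc2 and Kcnc4 rose. These channels repolarise fast and are known for sustaining rapid firing of interneurons. Kcnc2 had between 92.7 and 117 CPM (median 102) at 10 weeks and 27.4, 27.4, 23.7 and 23.9 CPM at day 7 in WT (log2 fold change 2.03, SE 0.0755, adjusted p = 3.74e-17). Kcnc1 had between 81.9 and 114 CPM (median 88.3) at 10 weeks and 42.7, 37.9, 32.6 and 33.5 CPM at day 7 (log2 fold change 1.33, SE 0.0971, adjusted p = 6.04e-11). Kcnc4 had a log2 fold change of 0.88, and none of these genes had overlapping ages. Of 7 interneuron markers, 6 were higher at 10 weeks and Lhx6 was lower, none was at 0, and their summed level was 628 to 704 CPM at 10 weeks and 242 to 329 CPM at day 7. Their part in the Kv3 results was not tested. Within Kv3 the share of Kcnc2 per length was 36.3% at 10 weeks and 22.8% at day 7, while that of Kcnc1 was 24.1% at 10 weeks and 24.6% at day 7.

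Both identifiers of Kcnb2, a delayed rectifier, fell in WT (log2 fold change -0.30 for each). The call of the Kcnb2 identifier with the lower counts was lost without WT replicate 6 at 10 weeks (adjusted p = 0.0504) or WT replicate 2 at day 7 (0.0803). The silent subunits, which form no channel alone and modify Kv2 channels, rose in 7 of 9 tested members (33.3% of all genes were called higher). Kcng4 had between 5.93 and 9.33 CPM (median 6.53) at 10 weeks and 0.398, 0.282, 0.244 and 0.314 CPM at day 7 (log2 fold change 4.52, SE 0.209, adjusted p = 2.1e-15), the next largest rise after that of Scn4b. Kcng2 (log2 fold change 1.13, adjusted p = 8.81e-07) and Kcns3 (log2 fold change 0.82, adjusted p = 4.55e-05) rose too. Kcng1 fell to between 11.7 and 16.6 CPM (median 14.8) at 10 weeks, against 35.5, 31.3, 30.7 and 36.1 CPM at day 7 (log2 fold change -1.21, SE 0.0984, adjusted p = 1.18e-10). Kcns1 alone of these 9 passed in neither direction in WT, with between 13.2 and 18.00 CPM (median 15.5) at 10 weeks and 14.6, 13.6, 12.4 and 13.1 CPM at day 7 (log2 fold change 0.19, SE 0.0941, adjusted p = 0.0732), and it returns below. Of the Kv4 genes, which carry the A-type current of dendrites, Kcnd2 (log2 fold change 0.18, adjusted p = 0.00509) and Kcnd3 (log2 fold change 0.58, adjusted p = 0.000132) rose and Kcnd1 (log2 fold change -0.39, adjusted p = 0.0103) fell.

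Among potassium channel auxiliary genes 8 of 12 tested rose and 2 fell. The 3 cytoplasmic beta subunits of Kv1 led them. Kcnab2 had between 415 and 483 CPM (median 427) at 10 weeks and 81.1, 71.9, 79.0 and 75.7 CPM at day 7 in WT (log2 fold change 2.50, SE 0.0539, adjusted p = 2.19e-21). Kcnab3 had between 32.2 and 44.3 CPM (median 39.1) at 10 weeks and 7.43, 5.61, 5.77 and 6.77 CPM at day 7 (log2 fold change 2.61, SE 0.127, adjusted p = 2.89e-14), and Kcnab1 a log2 fold change of 1.80. The ages of none of these overlapped. Of the calcium-binding partners of Kv4, Kcnip3 (log2 fold change 1.397, adjusted p = 1.17e-14) and Kcnip4 (log2 fold change 1.03, adjusted p = 9.3e-12) rose and Kcnip1 fell (log2 fold change -0.47, adjusted p = 1.41e-06). Kcnmb2, a beta subunit that inactivates the BK channel, fell to between 3.01 and 3.90 CPM (median 3.21) at 10 weeks, against 7.70, 8.15, 6.44 and 7.07 CPM at day 7 (log2 fold change -1.14, SE 0.118, adjusted p = 6.36e-09). The rises of Kcne4 and Kcnmb4 were lost without single WT animals: Kcne4 without replicate 1 (adjusted p = 0.0806) or 4 (0.09) at day 7, and Kcnmb4 without replicate 4 at 10 weeks (0.0607) or replicate 3 (0.134) or 4 (0.052) at day 7.

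The KCNQ genes carry the M current that muscarinic receptors close. Kcnq1, best known from the heart, fell at a low level in WT (log2 fold change -1.38, adjusted p = 4.04e-05). Kcnq3, a main M-channel subunit, had between 175 and 242 CPM (median 196) at 10 weeks and 259, 279, 187 and 241 CPM at day 7 (log2 fold change -0.27, SE 0.110, adjusted p = 0.0353), and this call was lost in turn without each WT animal but replicate 2 at 10 weeks and replicate 3 at day 7 (adjusted p 0.0507 to 0.149). Kcnq5 did not pass (log2 fold change 0.041, adjusted p = 0.669).

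In the EAG, ERG and ELK group 7 of 8 rose, where 33.3% of all genes were called higher. Kcnh1 had between 106 and 128 CPM (median 116) at 10 weeks and 57.8, 69.97, 51.9 and 58.6 CPM at day 7 in WT (log2 fold change 0.97, SE 0.0809, adjusted p = 2.34e-10). Kcnh7, an ERG channel, had between 186 and 217 CPM (median 201) at 10 weeks and 109.9, 125, 82.9 and 110.0 CPM at day 7 (log2 fold change 0.92, SE 0.104, adjusted p = 9.5e-08). Kcnh6, another ERG channel, rose at a low level (log2 fold change 0.58, adjusted p = 0.00179). Kcnh8, an ELK channel, was the exception and fell to between 0.441 and 1.21 CPM (median 0.795) at 10 weeks, against 3.62, 4.09, 3.96 and 3.79 CPM at day 7 (log2 fold change -2.274, SE 0.238, adjusted p = 8.43e-09). Of the calcium- and sodium-activated channels 4 of 8 rose and 2 fell. The sodium-activated Kcnt2 (log2 fold change 1.29, adjusted p = 1.89e-09) and Kcnt1 (log2 fold change 0.63, adjusted p = 3.94e-11) rose, as did Kcnma1, the BK pore (log2 fold change 0.43, adjusted p = 1.22e-05). Kcnn1, an SK channel of the afterhyperpolarisation, fell to between 15.5 and 18.5 CPM (median 16.5) at 10 weeks, against 38.8, 43.8, 34.7 and 34.6 CPM at day 7 (log2 fold change -1.17, SE 0.0938, adjusted p = 8.39e-11), while Kcnn2 of the same type rose (log2 fold change 0.39, adjusted p = 0.000795).

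Inward rectifiers, which hold the resting potential, rose in 10 of 13 tested members, where 33.3% of all genes were called higher. Kcnj4 had between 133 and 152 CPM (median 138) at 10 weeks and 44.4, 51.0, 47.9 and 42.6 CPM at day 7 in WT (log2 fold change 1.59, SE 0.0751, adjusted p = 3.38e-15), and Kcnj2, of the same constitutively open type, a log2 fold change of 1.29 (SE 0.0804). The G protein-gated subunits of neurons rose together, Kcnj3 by 1.13, Kcnj6 by 1.24 and Kcnj9 by 1.19 on the log2 scale. Kcnj5, the G protein-gated subunit best known from the heart, fell to between 0.463 and 1.15 CPM (median 0.714) at 10 weeks, against 2.22, 2.64, 2.60 and 2.12 CPM at day 7 (log2 fold change -1.67, SE 0.235, adjusted p = 1.09e-06). Kcnj11, the pore of neuronal ATP-sensitive channels, rose (log2 fold change 1.54, adjusted p = 6.12e-10) and Kcnj8, its vascular relative, fell (log2 fold change -0.60, adjusted p = 0.000741). Kcnj13 also rose (log2 fold change 1.59, adjusted p = 0.00785), but its ages overlapped and limma-voom with quality weights gave an adjusted p of 0.0822. It is a channel of the choroid plexus, and the summed level of 5 choroid plexus markers was 150.4 to 935 CPM at 10 weeks and 2.88 to 451 CPM at day 7 in WT, with none at 0 over a whole group. Their part in the Kcnj13 result was not tested. Kcnj15, under 1 CPM, was called lower, and the call was lost without WT replicate 3 at day 7 (adjusted p = 0.0755).

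The genes of potassium channels with a pair of pore domains carry the background leak current, and 6 of 12 tested rose and 2 fell. Of all genes 33.3% were called higher and 34.4% lower. Kcnk1 had between 75.7 and 95.0 CPM (median 82.8) at 10 weeks and 36.2, 28.6, 33.5 and 32.2 CPM at day 7 in WT (log2 fold change 1.36, SE 0.0645, adjusted p = 3.46e-15). Kcnk13, a channel prominent in microglia, had between 6.66 and 9.36 CPM (median 7.57) at 10 weeks and 1.56, 1.29, 2.03 and 2.42 CPM at day 7 (log2 fold change 2.07, SE 0.157, adjusted p = 2.63e-11). Microglial markers were higher at 10 weeks in 5 of 6, with none at 0 and a summed level of 231 to 250.4 CPM at 10 weeks and 105 to 122 CPM at day 7, and their part in that result was not tested. Kcnk10, which opens to membrane stretch and arachidonic acid, fell to between 7.41 and 8.91 CPM (median 7.81) at 10 weeks, against 40.9, 39.4, 32.9 and 38.6 CPM at day 7 (log2 fold change -2.25, SE 0.0820, adjusted p = 2.56e-17), and Kcnk9, closed by acid, fell too (log2 fold change -0.40, adjusted p = 0.000103). The small rises of Kcnk2 (log2 fold change 0.18, adjusted p = 0.0263) and Kcnk3 (log2 fold change 0.25, adjusted p = 0.0345) were each lost without several WT animals in turn: Kcnk2 without replicate 1 or 2 at 10 weeks or 1 or 4 at day 7 (adjusted p 0.054 to 0.0854), and Kcnk3 without replicate 2, 3 or 4 at 10 weeks or 3 or 4 at day 7 (0.0531 to 0.19).

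No calcium channel pore subunit rose with age. Of the 10 Cav1, Cav2 and Cav3 genes 6 fell and 4 did not pass, where 34.4% of all genes were called lower. Cacna1g, a low-threshold T-type pore, fell to between 47.5 and 63.4 CPM (median 52.8) at 10 weeks, against 150.1, 134, 107 and 121 CPM at day 7 in WT (log2 fold change -1.26, SE 0.0962, adjusted p = 1.87e-10). Cacna1h, of the same type, had between 43.4 and 63.2 CPM (median 51.2) at 10 weeks and 96.6, 89.0, 100.1 and 91.0 CPM at day 7 (log2 fold change -0.86, SE 0.0827, adjusted p = 3.56e-09). Cacna1b, the N-type pore of young presynaptic terminals, had between 111 and 140.1 CPM (median 122) at 10 weeks and 229, 232, 195 and 205 CPM at day 7 (log2 fold change -0.81, SE 0.0764, adjusted p = 1.81e-09). None of these 3 had overlapping ages. Cacna1a, the P/Q-type pore of mature terminals, had between 105 and 134 CPM (median 112) at 10 weeks and 159, 139, 119 and 140.1 CPM at day 7, and its ages overlapped (log2 fold change -0.30, SE 0.0824, adjusted p = 0.00315). The L-type pores Cacna1d (log2 fold change -0.65, adjusted p = 3.74e-08) and Cacna1c (log2 fold change -0.33, adjusted p = 0.00653) fell, while the R-type Cacna1e (log2 fold change 0.13, adjusted p = 0.307) and the T-type Cacna1i (log2 fold change 0.043, adjusted p = 0.720) did not pass. Per length, Cacna1a made up 28.8% of Cav2 at 10 weeks and 27.1% at day 7, and Cacna1b 35.8% at 10 weeks and 48.1% at day 7. Cacna1i made up 53.9% of Cav3 at 10 weeks and 34.9% at day 7.

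The subunits that bring the calcium channel pore to the membrane mostly rose. Of the beta subunits 3 of 4 rose. Cacnb4 had between 294 and 344 CPM (median 319) at 10 weeks and 115, 106, 85.6 and 105 CPM at day 7 in WT (log2 fold change 1.63, SE 0.0829, adjusted p = 2.2e-14), and Cacnb2 had a log2 fold change of 1.13 (SE 0.0674). Cacnb3 did not pass (log2 fold change 0.066, adjusted p = 0.283), and its share of the beta subunits per length was 39.4% at 10 weeks and 55.3% at day 7. Of the alpha2delta subunits, which bind gabapentin in the case of Cacna2d1 and Cacna2d2, 3 of 4 rose. Cacna2d3 had between 123 and 138 CPM (median 128) at 10 weeks and 83.5, 59.6, 96.8 and 85.1 CPM at day 7 (log2 fold change 0.66, SE 0.115, adjusted p = 3.85e-05), Cacna2d4 had a log2 fold change of 1.57 with a day-7 mean under 1 CPM, and the rise of Cacna2d1 (log2 fold change 0.20, adjusted p = 0.0128) was lost without WT replicate 1 (adjusted p = 0.0546) or 4 (0.068) at day 7. The gamma family, several of which escort AMPA receptors rather than calcium channels, had 3 members higher and 2 lower of 8. Cacng3 rose (log2 fold change 1.12, adjusted p = 1.85e-08), and Cacng4 fell to between 11.7 and 18.6 CPM (median 14.5) at 10 weeks, against 86.6, 78.7, 69.0 and 74.8 CPM at day 7 (log2 fold change -2.35, SE 0.113, adjusted p = 8.59e-14). Of the AMPA receptor escorts, Cacng8 rose (log2 fold change 0.39, adjusted p = 0.000684) and Cacng2 did not pass (log2 fold change -0.14, adjusted p = 0.0617). The rise of Cacng7 (log2 fold change 0.18, adjusted p = 0.0255) was lost without WT replicate 3 (0.0928) or 4 (0.104) at day 7.

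In the HCN family Hcn2 rose, and Hcn3 and Hcn4 fell. Hcn2, the widespread subunit of the brain, had between 85.9 and 104 CPM (median 89.9) at 10 weeks and 49.2, 43.6, 40.7 and 43.4 CPM at day 7 in WT (log2 fold change 1.06, SE 0.0587, adjusted p = 7.23e-14). Hcn4, the slow subunit known from thalamus and the heart's pacemaker, fell to between 2.64 and 3.33 CPM (median 3.19) at 10 weeks, against 25.0, 25.4, 25.2 and 24.6 CPM at day 7 (log2 fold change -3.03, SE 0.0986, adjusted p = 3.48e-18). Hcn3 fell to between 5.87 and 6.83 CPM (median 6.64) at 10 weeks, against 42.1, 40.8, 35.3 and 39.5 CPM at day 7 (log2 fold change -2.59, SE 0.0944, adjusted p = 2.52e-17). No age groups overlapped at any of these genes. Exons of Hcn3 overlap those of Pklr on the opposite strand by up to 711 bases, and reads of the pair cannot be told apart without a known strand setting. In G34R, Hcn4 had 4.33, 3.43 and 4.28 CPM at 10 weeks and 22.7, 20.8, 23.7 and 21.02 CPM at day 7 (log2 fold change -2.45, SE 0.124, adjusted p = 2.48e-14). The share of Hcn2 in the family per length was 86.1% at 10 weeks and 50.6% at day 7 in G34R, and 85.5% at 10 weeks and 47.6% at day 7 in WT.

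**Figure D3:**
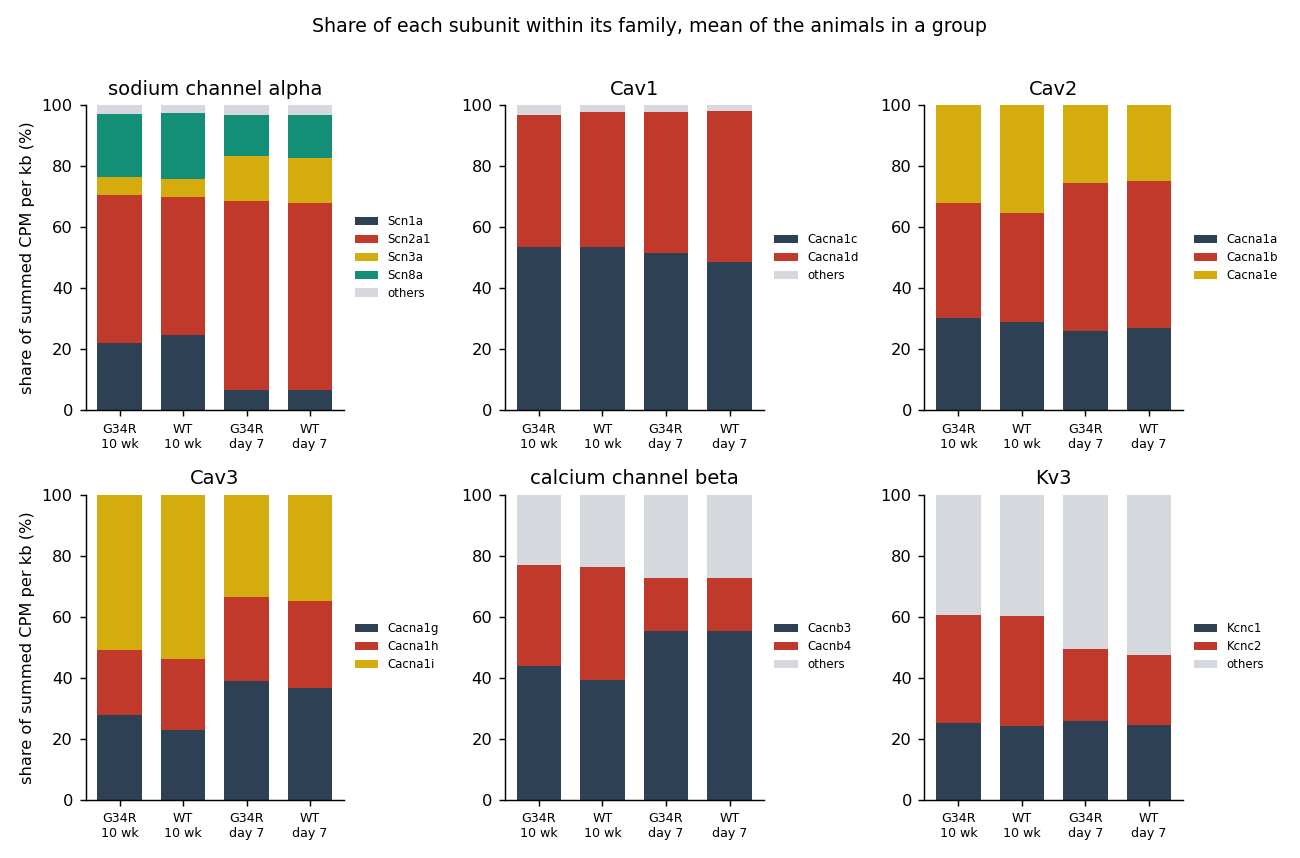
Share of named subunits in the summed CPM per kb of its family (vertical axis, percent), as the mean of the animals of G34R and WT at 10 weeks and at day 7. Scn1a grows to 24.6% at 10 weeks in WT, against 6.62% at day 7, and Cacna1i reaches 53.9% of Cav3, against 34.9% (10 weeks against day 7 in each case). The bars of G34R stand beside those of WT at each age.

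Proteins that anchor channels or escort them, taken from a list of 30 genes that are no members, also differed between the ages. In WT 23 were higher and 7 lower at 10 weeks than at day 7, where 67.7% of all genes were called. In G34R 20 were higher and 7 lower, where 63.8% of all genes were called. The list was chosen with earlier results of these data known, so these counts are a description only. Cntnap1, which builds the paranodal junction, rose by 3.43 on the log2 scale (SE 0.126). Lgi3, a secreted partner of the Kv1 complex, rose by 3.09 (SE 0.100), Unc80, a subunit of the sodium leak channel complex, by 2.23 (SE 0.0795) and Dlg1, a scaffold of synapses and axons, by 1.80 (SE 0.0497). Ank3, the master anchor of the axon initial segment, fell (log2 fold change -0.39, adjusted p = 0.00202). Cell type marker levels differed between the ages too. Immature neuron markers summed to 52.9 to 61.2 CPM at 10 weeks and 643 to 806 CPM at day 7 in WT. Of these markers 5 of 6 were lower at 10 weeks and none was at 0, and their part in the age results was not tested. Pan-neuronal markers summed to 5988 to 6869.6 CPM at 10 weeks and 5751 to 6535 CPM at day 7, overlapping between the ages.

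The WT and G34R mice were all male at 10 weeks and of both sexes at day 7, and the age fit had no term for sex. With males only, 9 of the 104 age calls in WT and 9 of the 95 in G34R were lost. A sex covariate lost 6 in WT and 2 in G34R. Those lost in WT with males only include Kcnk3 (adjusted p = 0.547), Cacng7 (0.47), Cacna2d1 (0.32) and Kcnmb4 (0.223). Of the 104 age calls in WT 94 were kept whichever animal was left out, and 84 of 95 in G34R. Those of WT that were lost without some animal are named above. In G34R, without replicate 1 at 10 weeks the calls of Kcne4 (adjusted p = 0.134), Kcnk3 (0.0808), Kcnj14 (0.0677), Scn11a (0.0622), Kcnmb1 (0.0942) and Kcnn3 (0.0506) were lost. Without replicate 2 at 10 weeks those of Kcnb2 (0.0767), Kcnn3 (0.17), Kcnd2 (0.0801), Cacna1c (0.136), Scn11a (0.0536) and Cacna2d3 (0.112) were lost, and without replicate 3 at 10 weeks those of Kcnb2 (0.0585), Cacna1c (0.0814), Kcnj8 (0.106), Kcnj14 (0.0654) and Kcnmb1 (0.107). At day 7 the calls lost without replicate 1 were Kcnn3, Kcnmb1 and Cacna2d3, those lost without replicate 2 were Kcnn3, Cacna1c, Kcnj14 and Scn11a, those lost without replicate 3 were Kcne4, Kcnmb1 and Cacna2d3, and that lost without replicate 4 was Kcnmb1, with adjusted p between 0.0518 and 0.103.

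The age difference itself was compared between G34R and WT. At an adjusted p under 0.05, 1 of 127 members was called (1.16% of all genes were), and 14 had an unadjusted p under 0.05. It was Kcns1, a silent subunit that pairs with Kv2 channels and shapes their gating. Kcns1 had 8.41, 8.81 and 7.94 CPM at 10 weeks and 13.5, 9.55, 12.2 and 10.4 CPM at day 7 in G34R, and between 13.2 and 18.00 CPM (median 15.5) at 10 weeks and 14.6, 13.6, 12.4 and 13.1 CPM at day 7 in WT. It thus stood lower at 10 weeks than at day 7 in G34R with no overlap (log2 fold change -0.44, SE 0.114, adjusted p = 0.00169), and did not pass in WT. The difference between these age effects was -0.64 on the log2 scale (SE 0.148, adjusted p = 0.0308). It was lost without 7 of the 17 animals in turn: G34R replicates 1, 2 and 3 at 10 weeks (adjusted p = 0.0833, 0.0543 and 0.104), G34R replicates 1 and 3 at day 7 (0.0782 and 0.0607), and WT replicates 3 and 4 at day 7 (0.0673 and 0.0677). With males only the adjusted p was 0.253, and the 1 member called was then Kcnh5 (difference 0.97, adjusted p = 0.0143). No member was called without G34R replicate 1 or 3 at 10 weeks, G34R replicate 1 at day 7 or WT replicate 4 at day 7. Hcn4 came near, with a difference of 0.58 (SE 0.153, adjusted p = 0.0709) between an age log2 fold change of -2.45 in G34R and one of -3.03 in WT. It passed in DESeq2 (adjusted p = 0.00707), in limma-voom with quality weights (0.0322) and in a fit of the compared groups alone (0.0174).

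At 10 weeks the channel genes differed little between G34R and WT. Of 124 tested members 2 were higher and 6 lower in G34R (6.45%, against 5.61% of all 21274 genes), which is near the background, and the median log2 fold change was -0.04 over members and -0.0036 over all genes. Kcns1 led them. It had 8.41, 8.81 and 7.94 CPM in G34R and between 13.2 and 18.00 CPM (median 15.5) in WT, every G34R animal below every WT animal (log2 fold change -0.87, SE 0.101, adjusted p = 2.5e-05). Kcns2, another silent subunit, had 25.9, 31.4 and 25.8 CPM in G34R and between 31.9 and 39.4 CPM (median 33.3) in WT (log2 fold change -0.32, SE 0.0875, adjusted p = 0.0406). Kcng4, of the same silent class, went the other way, with 12.3, 14.4 and 9.74 CPM in G34R and between 5.93 and 9.33 CPM (median 6.53) in WT (log2 fold change 0.80, SE 0.135, adjusted p = 0.00112). Neither gene had overlapping groups. Kcna1 had 186, 196 and 180.1 CPM in G34R and between 214 and 278 CPM (median 233) in WT (log2 fold change -0.35, SE 0.0907, adjusted p = 0.0282).

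The other calls in G34R fell in the channels with a pair of pore domains (Kcnk6 higher, Kcnk2 lower) and the calcium- and sodium-activated channels (Kcnn2 and Kcnu1, both lower). Kcnk6, a channel with a pair of pore domains, had 4.58, 5.24 and 4.40 CPM in G34R and between 2.43 and 4.09 CPM (median 3.16) in WT (log2 fold change 0.61, SE 0.156, adjusted p = 0.0278). Microglial markers were higher in G34R in 5 of 6, where 5.61% of all genes were called in either direction. Their summed level was 364 to 414 CPM in G34R and 231 to 250.4 CPM in WT, with none at 0. Kcnk13, named above as prominent in microglia, had 8.99, 8.05 and 7.22 CPM in G34R and was not called. It had between 6.66 and 9.36 CPM in WT. The part of the microglial markers in the Kcnk6 result was not tested. Kcnk2, which opens to stretch and heat, had 37.1, 32.5 and 33.1 CPM in G34R and between 38.8 and 49.7 CPM (median 44.2) in WT (log2 fold change -0.36, SE 0.0811, adjusted p = 0.0115). Kcnn2, an SK channel, had 17.1, 19.9 and 20.1 CPM in G34R and between 22.4 and 25.5 CPM (median 22.9) in WT (log2 fold change -0.32, SE 0.0818, adjusted p = 0.0274). Kcnu1, best known from sperm, had 1.44, 1.36 and 1.73 CPM in G34R and between 2.02 and 2.54 CPM (median 2.32) in WT (log2 fold change -0.62, SE 0.169, adjusted p = 0.0401). None of Kcnk6, Kcnk2, Kcnn2 and Kcnu1 had overlapping groups. The share of all genes without overlap was not computed, so lack of overlap is a description only. The calls of Kcns1 and Kcng4 held whichever animal was left out. The 6 others were each lost without at least 2 animals in turn. Kcnk2 was lost without G34R replicate 2 or 3 (adjusted p up to 0.0776), Kcnk6 without any of the G34R animals (0.14), Kcna1 without any G34R animal or WT replicate 4 (0.144) and Kcnn2 without any G34R animal or WT replicate 4 or 5 (0.184). Kcns2 was lost without G34R replicate 1 or 3 or WT replicate 1, 2, 4 or 6 (0.22), and Kcnu1 without any animal but WT replicate 6 (0.16). The count of 8 calls became 3 without G34R replicate 1, 4 without G34R replicate 2, 2 without G34R replicate 3 and 4 without WT replicate 4. With a block for each run of neighbouring animal numbers, 4 of the 8 calls were lost, those of Kcnk6 (adjusted p = 0.0626), Kcng4 (0.0646), Kcnk2 (0.102) and Kcnu1 (0.151). Mitochondrial protein-coding genes took 0.886 to 0.984% of counts in G34R libraries and 0.933 to 1.35% in WT libraries at 10 weeks. The libraries of low mitochondrial share held all G34R animals, but of WT only replicates 1 and 4 and 1 library of replicate 3. With only these libraries 5 of the 8 calls were lost, those of Kcnn2 (0.0519), Kcnk2 (0.055), Kcng4 (0.0647), Kcnu1 (0.0871) and Kcns2 (0.163). The like share and the smaller number of WT animals cannot be told apart in these losses.

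In G34V mice 2 of 124 members were higher and 3 lower than in WT (4.03%, against 4.25% of all genes). Kcns1 had 9.21, 8.68 and 7.58 CPM in G34V and between 13.2 and 18.00 CPM (median 15.5) in WT, with no overlap (log2 fold change -0.85, SE 0.102, adjusted p = 5.52e-05). Kcnk5, an acid-sensitive leak channel, had 0.104, 0.405 and 0.406 CPM in G34V and between 0.624 and 1.504 CPM (median 1.02) in WT (log2 fold change -1.72, SE 0.417, adjusted p = 0.0244). The call was lost without G34V replicate 1 (adjusted p = 0.126) or 2 (0.0568). Kcnj2 had 24.5, 26.2 and 23.3 CPM in G34V and between 27.8 and 33.7 CPM (median 30.8) in WT (log2 fold change -0.33, SE 0.0867, adjusted p = 0.0351), and Kcnj9 had 129.8, 129.9 and 126 CPM in G34V and between 91.8 and 117 CPM (median 99.9) in WT (log2 fold change 0.33, SE 0.0738, adjusted p = 0.0150). Kcnh5, an EAG channel, had 62.3, 77.5 and 54.0 CPM in G34V and between 48.0 and 54.0 CPM (median 53.1) in WT, where the groups overlapped (log2 fold change 0.31, SE 0.0850, adjusted p = 0.0487). The Kcnj2 call was lost without any animal but WT replicates 2 and 3 (adjusted p up to 0.144), the Kcnj9 call without G34V replicate 1 (0.0766) or 2 (0.0755), and the Kcnh5 call without any but G34V replicate 3 (up to 0.399). The count of 5 calls became 1 without G34V replicate 1, 1 without G34V replicate 2 and 3 without WT replicate 1. The block of animal numbers left Kcns1 called and lost Kcnj9 (adjusted p = 0.157), Kcnk5 (0.26), Kcnj2 (0.397) and Kcnh5 (0.419). All G34V libraries lay in the set of high mitochondrial share, which lacks WT replicates 1 and 4 and 1 library of replicate 3. Within this set Kcnj2 (0.0578) and Kcnh5 (0.26) were lost. Kcnh5 was also lost with a sex covariate (0.0511), a filter of 1 CPM (0.0546) and only the compared groups (0.0778).

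In the 2 G34W mice 2 of 124 members were higher and 1 lower than in WT (2.42%, against 1.61% of all genes). Kcns1 had 9.27 and 9.79 CPM in G34W and between 13.2 and 18.00 CPM (median 15.5) in WT, with no overlap (log2 fold change -0.69, SE 0.119, adjusted p = 0.00851). Cacna2d2, an alpha2delta subunit, had 47.2 and 48.6 CPM in G34W and between 24.9 and 34.3 CPM (median 29.4) in WT (log2 fold change 0.70, SE 0.111, adjusted p = 0.00551). Kcnh5 had 68.4 and 75.4 CPM in G34W (log2 fold change 0.46, SE 0.0972, adjusted p = 0.0235). All 3 calls were lost without G34W replicate 1, which leaves the female animal alone and assumes it to vary like the other groups (adjusted p = 0.0964 for Kcns1, 0.0564 for Cacna2d2 and 0.0997 for Kcnh5), and Kcnh5 also without replicate 2 (0.119). Replicate 1 had the lowest TMM factor of the series, 0.809, where the other 10-week animals had 0.936 to 1.003. The count of 3 calls became 0 without G34W replicate 1 and 6 without replicate 2. The block of animal numbers lost all 3 calls (adjusted p = 0.117 for Cacna2d2, 0.12 for Kcns1 and 0.206 for Kcnh5). Limma-voom with quality weights lost Kcns1 (0.0996) and Kcnh5 (0.216), as did the set of libraries of high mitochondrial share, which holds both G34W animals (0.0597 for Kcns1 and 0.162 for Kcnh5). A sex covariate lost Kcnh5 (0.117).

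**Figure D4:**
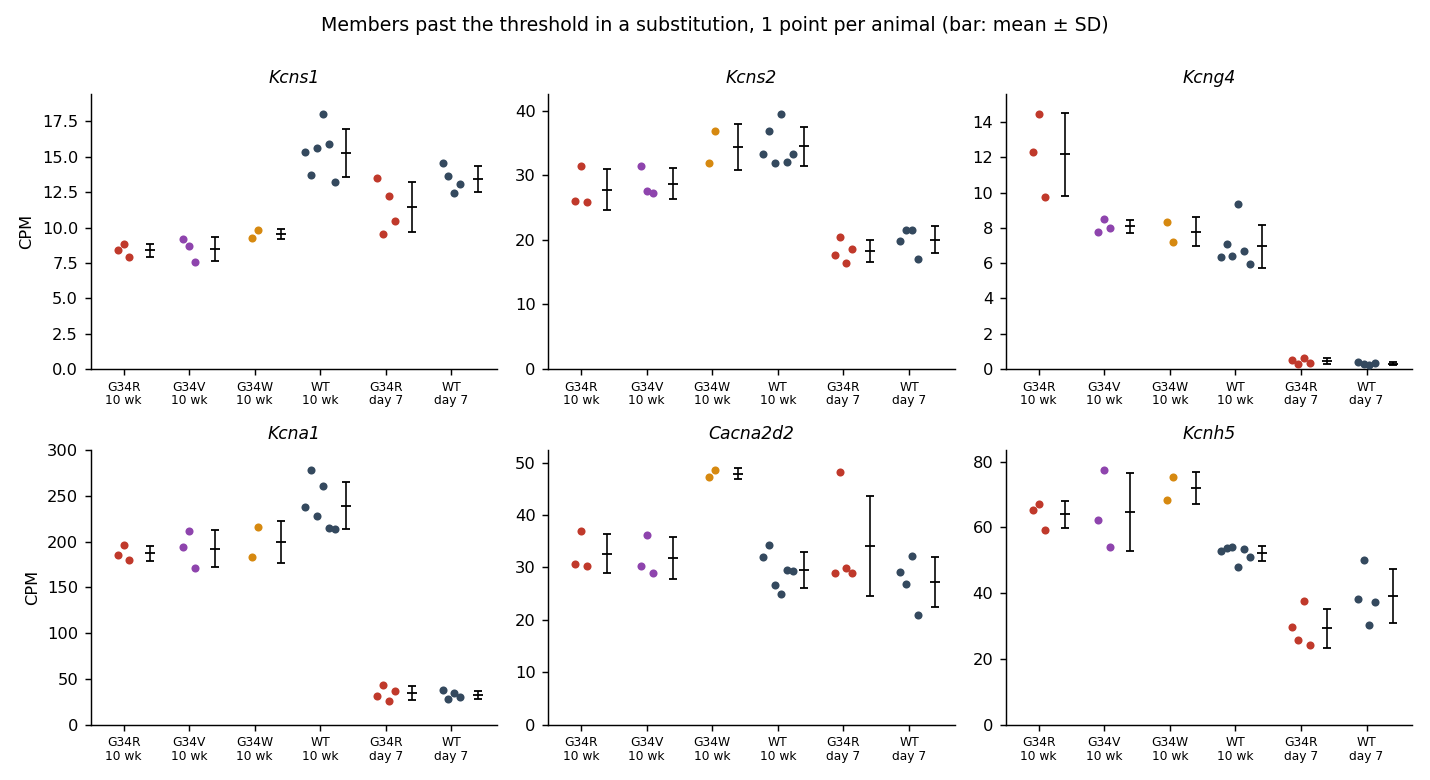
CPM (vertical axis) of 6 members called in at least 1 substitution, 1 point per animal in every group, with the mean ± SD beside each. The Kcns1 points of G34R, G34V and G34W at 10 weeks lie between 7.58 and 9.79 CPM, all below the WT points of that age, which begin at 13.2 CPM.

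The 3 substitutions were set against the same 6 WT animals, so their values are given side by side and not as independent repeats. Called in at least 1 of them were 13 members: Kcns1 in all 3, Kcnh5 in 2, and 11 in 1, with the losses under other settings given above for each. Of all genes, 5.61% were called in G34R, 4.25% in G34V and 1.61% in G34W. The share of all genes called in at least 1, in 2 or in all 3 was not computed, so these counts are a description only. The log2 fold change of Kcns1 was -0.87 in G34R, -0.85 in G34V and -0.69 in G34W. That of Kcnh5 was 0.29 in G34R, where the adjusted p was 0.0529, 0.31 in G34V and 0.46 in G34W. In G34R it passed under several alternatives, from only the compared groups (adjusted p = 0.00338) to RLE scaling with edgeR (0.049). It did not pass there in limma-voom, with a sex covariate or with the block of animal numbers. The log2 fold change of Kcna1 was -0.35 in G34R, -0.32 in G34V (adjusted p = 0.0613) and -0.27 in G34W (0.212). Kcnk6 had 0.61 in G34R, 0.56 in G34V (0.0540) and -0.072 in G34W (0.882). Of the 16 calls in all, the 3 that held whichever animal was left out were Kcns1 in G34R, Kcns1 in G34V and Kcng4 in G34R. The last of these had an adjusted p of 0.0646 with runs of animal numbers as a block and 0.0647 with only libraries of a like mitochondrial share, while Kcns1 in G34R and G34V passed under every alternative run.

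**Figure D5:**
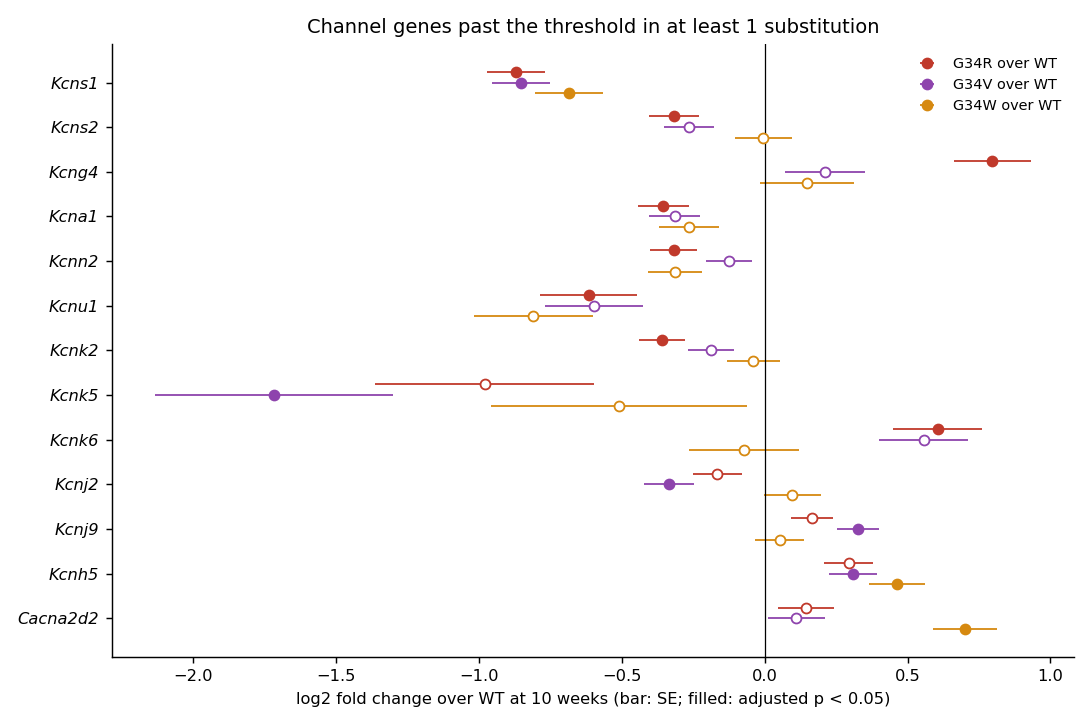
Log2 fold change over WT at 10 weeks (horizontal axis, bars are the SE) of the 13 members called in at least 1 substitution, for G34R, G34V and G34W. Filled points passed an adjusted p under 0.05. Kcns1 is filled in all 3 and lies between -0.87 and -0.69, and Kcng4 is filled only in G34R at 0.80.

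The substitutions were also compared with each other. Mitochondrial protein-coding genes took 0.886 to 0.984% of counts in G34R libraries, 1.12 to 1.23% in G34V libraries and 1.33 to 1.36% in G34W libraries, with no overlap, so that in these comparisons the substitution and this share cannot be told apart. Between G34R and G34V no member was called in edgeR's test (0.230% of all genes were), 8 had an unadjusted p under 0.05, and DESeq2 called Kcng4. Kcng4 had 12.3, 14.4 and 9.74 CPM in G34R and 7.76, 8.50 and 8.01 CPM in G34V, without overlap (log2 fold change 0.59, SE 0.160, adjusted p = 0.173). Between G34R and G34W, 2 members were lower in G34R (1.61%, against 1.88% of all genes), both alpha2delta subunits. Cacna2d2 had 30.6, 36.9 and 30.3 CPM in G34R and 47.2 and 48.6 CPM in G34W (log2 fold change -0.56, SE 0.127, adjusted p = 0.0354), and Cacna2d3 had 106, 127 and 108 CPM in G34R and 143 and 145 CPM in G34W (log2 fold change -0.34, SE 0.0801, adjusted p = 0.0385). Each call was lost without G34R replicate 1 or 3 or without either G34W animal (adjusted p up to 0.113 for Cacna2d2 and 0.133 for Cacna2d3). No member was called without G34R replicate 1 or 3 or G34W replicate 2, and 1 was without G34W replicate 1. Both calls were lost in limma-voom (adjusted p = 0.117 for Cacna2d2 and 0.141 for Cacna2d3), with a sex covariate (0.102 and 0.0934) and with the block of animal numbers (0.595 and 0.407), and that of Cacna2d3 with only the compared groups (0.124). Kcns1 differed by -0.018 between G34R and G34V (SE 0.115) and by -0.19 between G34R and G34W (SE 0.1296), and neither passed.

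At day 7 none of 122 tested members was called between G34R and WT in edgeR's test with sex as a covariate (0.308% of all genes were), and 14 had an unadjusted p under 0.05. DESeq2 called Kcnt1, a sodium-activated potassium channel, as did edgeR without the filter on low counts. Kcnt1 had 51.7, 54.1, 49.7 and 50.6 CPM in G34R and 40.1, 44.2, 46.8 and 43.4 CPM in WT, with every G34R animal above every WT animal (log2 fold change 0.25, SE 0.0568, adjusted p = 0.157). Kcns1 had 13.5, 9.55, 12.2 and 10.4 CPM in G34R and 14.6, 13.6, 12.4 and 13.1 CPM in WT at this age, and the groups overlapped (log2 fold change -0.23, SE 0.107, adjusted p = 0.680). Kcng4 stayed under 1 CPM in all 8 animals.

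Of the 30 anchors and escorts, Lgi3 was lower at 10 weeks in each substitution. It had 85.5, 89.7 and 71.6 CPM in G34R, 70.1, 82.0 and 78.8 CPM in G34V and 82.1 and 76.9 CPM in G34W, against between 94.5 and 113 CPM (median 105) in WT. The log2 fold change was -0.34 in G34R (adjusted p = 0.0121), -0.44 in G34V (0.00272) and -0.39 in G34W (0.0381), and its age difference in G34R minus that in WT was -0.62 (adjusted p = 0.0259). G34R mice also had lower Adam23 (log2 fold change -0.24, adjusted p = 0.0248), Nalcn, the sodium leak channel (log2 fold change -0.22, adjusted p = 0.0159), and Calm2, a calmodulin gene (log2 fold change -0.20, adjusted p = 0.0254). In G34W, Cntnap2 (log2 fold change 0.35, adjusted p = 0.0175) and Dlg2 (log2 fold change 0.37, adjusted p = 0.0121) were higher and Cntn2 lower (log2 fold change -0.42, adjusted p = 0.0481). Calls of these 30 genes are given here with animals left out, and not under the other alternatives. The Lgi3 call in G34V held whichever animal was left out. That in G34R was lost without G34R replicate 3 (adjusted p = 0.134), that in G34W without either G34W animal or WT replicate 1, 2, 4 or 5 (up to 0.125), and the age comparison without G34R replicate 1 or 3 at 10 weeks or G34R replicate 4 at day 7 (up to 0.0908). Adam23 was lost without G34R replicate 1 or 3 or WT replicate 3 (up to 0.144), Nalcn without G34R replicate 1 or 2 or WT replicate 3 (up to 0.119) and Calm2 without G34R replicate 1 or 3 or WT replicate 1, 3 or 4 (up to 0.175). In G34W, Cntn2 was lost without any animal but WT replicates 4 and 6 (up to 0.296), Cntnap2 without replicate 1 or 2 (up to 0.0937) and Dlg2 without replicate 2 (0.0944). Beside this, 2 of 6 oligodendrocyte markers were lower in G34V, 1 in G34W and none in G34R, with summed levels of 3092 to 3983 CPM in G34R, 2580.4 to 3364 CPM in G34V, 2799 to 4278 CPM in G34W and 4102 to 5381 CPM in WT and no marker at 0. Their part in the Lgi3 and Kcna1 results was not tested.

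H3f3a lies on chromosome 1, as do 10 members, all of them tested. The nearest were Kcnk2 (chr1, GRCm38, 189207930 to 189402273) at 8.39 Mb and Kcnj9 (172320501 to 172329318) at 8.47 Mb from H3f3a, and they were the ones of the 10 with a call against WT: Kcnk2 lower in G34R and Kcnj9 higher in G34V. Kcnh1, at 11.38 Mb, was called in none. Whether the DNA around the edited gene differs between the mice was not tested. Beside Hcn3, these members named here share exonic bases with a gene on the opposite strand, which leaves their counts uncertain where the strand was not used: Cacna1a, Cacna1d, Cacna1h, Cacna2d2, Cacnb2, Cacnb4, Cacng2, Kcna6, Kcnab1, Kcnab3, Kcnd3, Kcng2, Kcnh7, Kcnip4, Kcnj13, Kcnj15, Kcnj3, Kcnj6, Kcnj9, Kcnk1, Kcnk2, Kcnk3, Kcnma1, Kcnmb4, Kcnn1, Kcnn2, Kcnq1, Kcnq5, Kcnt2 and Scn9a. Cacng8 and Kcnab2 share some with a gene on the same strand.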

How the data were processed

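Total RNA of pulverised cortex was sequenced after depletion of ribosomal RNA, per the labels' protocols. The deposited file holds raw counts of reads per gene for 23 libraries. The submitters' processing notes name Trimmomatic 0.32, STAR 2.3.0e, bedtools 2.27.1, featureCounts 1.4.4 and mm10 with no roles. The sources used here leave the annotation release and the strand setting not given. Animals are told apart by number in the titles. WT animal 3 at 10 weeks had 2 libraries, whose counts were summed, leaving 22 animals. Mitochondrial protein-coding genes took 0.933% of counts in 1 of these libraries and 1.27% in the other. The pair thus fell on opposite sides of the split by mitochondrial share, although it came from 1 mouse. Replicate numbers follow the order of submission and pair no animals.

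Counts were tested with edgeR 4.0.16 (quasi-likelihood, robust, TMM scaling, filterByExpr) in R 4.3.3, with Benjamini-Hochberg adjustment over all genes of each fit. The age comparisons came from 1 fit of all 22 animals (22417 genes, 16 residual degrees of freedom), the comparisons at 10 weeks from the 14 animals of that age (21274 genes, 10 degrees of freedom), and that at day 7 from 8 animals with a term for sex (5 degrees of freedom, 20451 genes). The biological coefficient of variation was 0.133 in the first fit, 0.137 in the next and 0.124 at day 7. The SE is the size of the log2 fold change divided by the square root of the F statistic. CPM were computed on 1 TMM scale, and CPM per kb from the exon union of GENCODE M21, where 37693 of 39017 identifiers were found. Each fit was tested on simulated data. Alternatives were RLE scaling, other filters on low counts, DESeq2 1.42.0, limma 3.58.1 (voom with quality weights), other sample sets, sex, runs of animal numbers as a block, and leaving out each animal.

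Members and lists were chosen with earlier results of these data known. Members were named by rule: those called between genotypes, up to 3 higher and 3 lower per role group between the ages in WT with at least 1 CPM and no overlap, and known developmental genes. Of these, 6 members are not reported here. The 4 partner genes with the largest change between the ages were named too. Named after their values were seen were Kcnn3, Kcnmb1, Kcnj3, Kcnip4, Kcnip3, Kcnd1, Kcnb2, Kcnj13, Kcnc4, Kcna6, Cacng7, Cacna2d1, Kcnk3, Scn11a, Kcnj6, Kcnmb4, Kcnj15, Kcne4 and Kcne2, and every partner other than Cntnap1, Lgi3, Unc80 and Dlg1. Python 3.11.15 with pandas 2.3.3 made the tables.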

Additional observations from a re-analysis of the deposited data

Results flagged for a closer look

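Of 231 groups of 4 or more animals, over 77 genes, 14 (6.06%) held an animal whose gap to the nearest other was large for the range of its group, where chance gives about 1 in 20. WT replicate 2 at 10 weeks held 7 of them: its Kcnq3 was 242 CPM (175 to 200.2 in the other WT animals), Scn8a 406 CPM (333 to 351), Kcnma1 169.7 CPM (143 to 149.6), Cacna1a 134 CPM (105 to 113) and Kcnc1 114 CPM (81.9 to 92.7), all high, and its Kcnt2 was 83.2 CPM (105 to 117) and its Hcn3 5.87 CPM (6.58 to 6.83), both low. Of the 104 age calls in WT, 102 were kept without this animal.

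Kcng4 was 9.33 CPM in WT replicate 4 at 10 weeks (5.93 to 7.07 in the others). In G34R at day 7, Cacna2d2 was 48.3 CPM in replicate 2 (28.9 to 29.9) and Kcnq3 was 244.7 CPM in replicate 2 (210.1 to 216). In WT at day 7, Kcna5 was 3.23 CPM in replicate 3 (1.89 to 2.02), Kcnip1 was 20.6 CPM in replicate 1 (22.7 to 22.8), Kcnj11 was 5.32 CPM in replicate 2 (4.27 to 4.40) and Kcnk9 was 19.3 CPM in replicate 2 (16.0 to 16.2).

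Kcns1 was the member whose age effect differed between G34R and WT by a test of the difference itself (-0.64 on the log2 scale, adjusted p = 0.0308 in edgeR), and the call was lost without 7 of 17 animals in turn.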

How the results depend on the processing

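Every alternative chosen gave values. Counts of members called are given first, for the settings where they moved most in proportion to the main fit. DESeq2 called 4 for age by G34R, 9 in G34V, 7 in G34W, 1 between G34R and G34V, 7 between G34R and G34W and 1 (Kcnt1) in G34R at day 7. Limma-voom called 2 for age by G34R, 8 in G34V, 1 in G34W and 0 between G34R and G34W. Fitting only the compared groups gave 2 for age by G34R and 1 between G34R and G34W. A sex covariate gave 6 in G34W and 0 between G34R and G34W. A block of runs of animal numbers gave 2 in G34V, 0 in G34W and 0 between G34R and G34W. Libraries of a like mitochondrial share gave 1 in G34W, and no filter on low counts gave 1 in G34R at day 7. Smaller moves include those of G34R against WT at 10 weeks, where the main fit called 8. There, only the compared groups gave 12, DESeq2 11, the block 6 and libraries of a like mitochondrial share 6. Males only gave 97 calls between the ages in WT and 86 in G34R, against 104 and 95 in the main fit. Leaving out 1 animal at a time gave 96 to 105 calls between the ages in WT, 89 to 95 in G34R, 0 to 1 for their difference, 2 to 8 in G34R, 1 to 6 in G34V, 0 to 6 in G34W and 0 to 2 between G34R and G34W at 10 weeks.

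The member median between the ages was 0.316 in WT and 0.329 in G34R with males only, and 0.342 to 0.441 in WT and 0.355 to 0.412 in G34R with an animal left out. That of G34W over WT was -0.10 with a sex covariate, 0.086 with the block and -0.0994 to 0.0853 with an animal left out. That of G34R over G34W was 0.044 with a sex covariate, -0.15 with the block and -0.165 to 0.0490 with an animal left out. Of 2668 values of named genes under alternatives, 2517 kept direction and side of the threshold, 135 lost the call, 11 gained it and 5 changed sign. The 5 had no call: Kcnq5 (-0.058), Cacna1i (-0.11) and Cacnb3 (-0.021) between the ages in WT with males only, and without single animals Kcnq5 (-0.0278 to 0.0800) and Cacna1i (-0.0466 to 0.114). The cause was not tested. No paired analysis was possible because replicate numbers only name animals. With 1 male and 1 female G34W mouse, sex and the single animal cannot be told apart in that group, and members under 1 CPM rest on few reads.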

Other observations

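Kcnj13 and Kcne2, channel genes of the choroid plexus, varied between animals of 1 group. In G34V replicate 3, Kcnj13 was 11.8 CPM and Kcne2 5.76 CPM, where 5 choroid plexus markers summed to 1043 CPM. In G34W replicate 1, Kcnj13 was 0.690 CPM and Kcne2 0.307 CPM, with a sum of 14.2 CPM. In WT replicate 2 at day 7, Kcne2 was 0.0403 CPM, with a sum of 2.88 CPM. How much choroid plexus each sample held was not measured otherwise.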
